A study of Mus musculus with 378 samples.

Results

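CD8 and CD4 T cells from the same kind of tumour were compared in mice labelled as lacking Il27ra, the gene for the receptor chain of the cytokine IL-27. The cells were CD8 and CD4 single-cell libraries titled Il27ra KO, kept with a minimum of 1000 genes above 0 FPKM. This left 74 of 92 CD8 cells and 78 of 94 CD4 cells; under the same minimum the series also holds 67 of 94 WT CD8 and 79 of 94 WT CD4 cells. The fewest genes in a kept cell were 1154, and the most in a cell left out were 977.

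Tumour-infiltrating cells came from C57BL/6 mice, an inbred strain, bearing B16F10, a transplantable melanoma line. The series was made to look for T cell genes induced by IL-27. The groups used were Il27ra KO CD8 single cells, Il27ra KO CD4 single cells, 1 population library (many cells in 1 tube) of each, and the same groups from WT mice, all made with Smart-seq2, a full-length cDNA method. The labels name no animal, so each group is 1 sample, its cells are parts of that sample and not replicates, and no p-value or standard error was computed. The labels describe the deletion only as IL27raKO, without saying which cells carry it, and their protocol text names CD8+ cells only, so the CD4 identity rests on the titles and on the genes below. The titles also hold a code word that differs between the groups (rabbit for CD8 and bird for CD4 cells labelled KO, cat for WT CD8 and dog for WT CD4). The labels do not say what the word marks, and anything it marks cannot be told apart from the cell type.

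CD8 T cells see peptides on MHC class I and kill by releasing perforin and granzymes from cytotoxic granules. CD4 T cells see peptides on MHC class II and steer other immune cells through cytokines and CD40 ligand. A part of the CD4 cells in most tumours are regulatory T cells, which depend on the transcription factor Foxp3, carry high CTLA-4, GITR and OX40, and restrain the other T cells.

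Levels are given as FPKM, which is corrected for transcript length, and differences as the mean of log2(FPKM + 1) over CD8 cells minus the mean over CD4 cells. Because many cells hold 0 for a gene, such a difference follows both the share of cells with the gene and the level in those cells. SDs are over cells, and intervals on shares are exact Clopper-Pearson 95% intervals that cover counting error only. Beside a share of 0, the share allowed is that of 3 cells of the total, while the exact interval reaches 4.86% for 0 of 74 and 4.62% for 0 of 78 cells; both limit the cells with a value above 0 and not the cells that express the gene. Kept CD8 cells had a median of 2797 genes above 0 (1476 to 5451), and kept CD4 cells had a median of 2650.5 (1154 to 5220). Reads per cell, estimated from the steps in low FPKM values, had a median of 572841 in CD8 cells and 553950 in CD4 cells.

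The targeted gene was read in both types. Il27ra (mm10, GENCODE M21 annotation, chr8:84030294-84042589, minus strand) lay above 0 in 39 of 74 CD8 cells, 52.7% (40.7 to 64.4), and in 41 of 78 CD4 cells, 52.6% (40.9 to 63.99). Its mean log2 level was 3.25 ± 3.43 in CD8 and 3.24 ± 3.34 in CD4 cells, a difference of 0.01. In WT cells the mean was 1.57 in CD8 and 3.02 in CD4. Reads outside a deleted part of the gene would check nothing, and no source used here gives that part. The cells are therefore called "labelled Il27ra KO".

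The coreceptor genes followed the titles. Cd8a, which encodes the alpha chain of the CD8 coreceptor (chr6:71373427-71379173, plus strand), ran from 0 to 4613 FPKM with a median of 534 in CD8 cells, against 0 to 12.9 FPKM with a median of 0 in CD4 cells. It was found in 70 of 74 CD8 cells, 94.6% (86.7 to 98.5), and in 6 of 78 CD4 cells, 7.69% (2.88 to 15.99). The ranges barely overlapped, since 93.2% of CD8 cells and 1.28% of CD4 cells lay above 10 FPKM, and the difference of means was 8.29.

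Cd4 (chr6:124864692-124888221, minus strand) showed the reverse. It ran from 0 to 1.59 FPKM in CD8 cells, against 0 to 2608 FPKM with a median of 267.6 in CD4 cells. It was found in 2 of 74 CD8 cells and in 70 of 78 CD4 cells, with a difference of -7.03. In the population libraries log2(FPKM + 1) of Cd4 was 0.64 for CD8 and 9.77 for CD4, and that of Cd8a was 10.67 for CD8 and 2.37 for CD4. In such a library fewer cells with a gene and less RNA per cell cannot be told apart.

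The beta chain gene Cd8b1 was less exclusive. It was found in 60 of 74 CD8 cells (81.1%, 70.3 to 89.3) and in 26 of 78 CD4 cells (33.3%, 23.1 to 44.9). CD8 cells that held it had a median of 1703 FPKM, while CD4 cells that held it had a median of 5.03 FPKM. Above 10 FPKM the shares were 78.4% of CD8 and 15.4% of CD4 cells, and with every cell thinned to 200000 estimated reads they were 78.9% of CD8 and 21.1% of CD4 cells above 0. Both CD8 chains were found in 58 CD8 cells and 3 CD4 cells, and Cd4 with Cd8b1 but without Cd8a in 0 CD8 cells and 22 CD4 cells. Any CD8 chain without Cd4 was found in 71 CD8 cells and 2 CD4 cells, and Cd4 without a CD8 chain in 1 CD8 cell and 43 CD4 cells. At least 1 of Cd3d, Cd3e and Cd3g, which encode chains of the T cell receptor complex, was found in 71 CD8 and 77 CD4 cells.

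**Figure D1:**
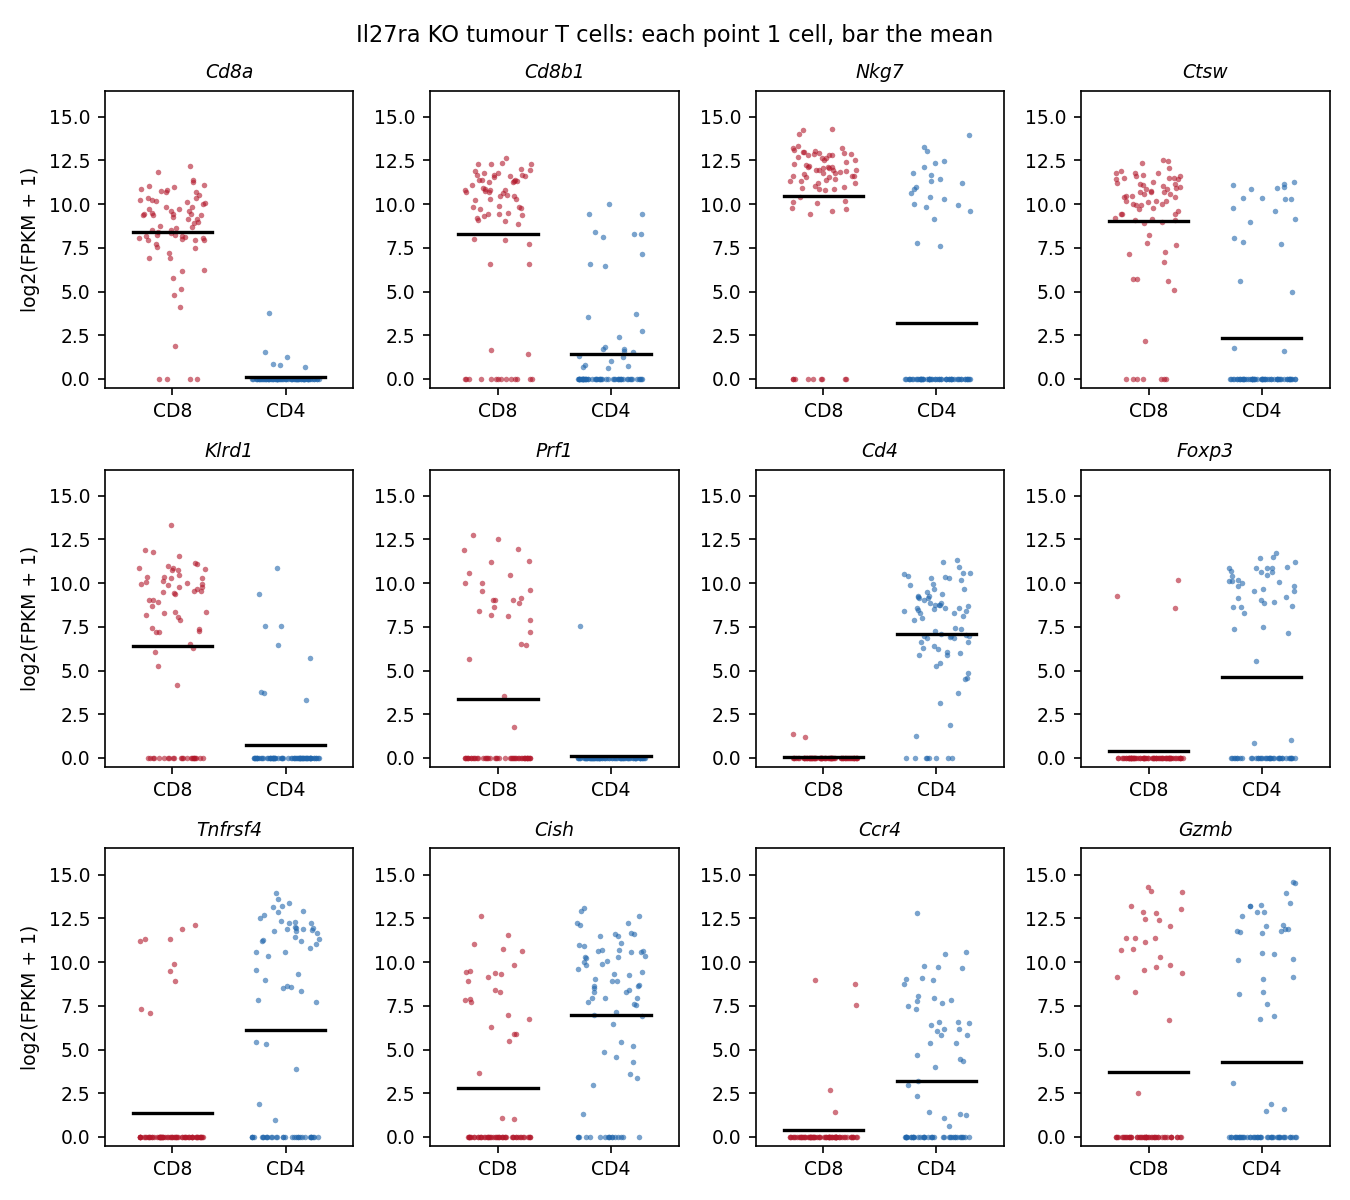
Each point is 1 kept cell labelled Il27ra KO, CD8 cells left of CD4 cells in each panel, with the level as log2(FPKM + 1) on the y axis and the mean over cells as a bar. Cd8a and Cd4 split the titles almost completely, Gzmb does not (33.8% of CD8 and 42.3% of CD4 cells above 0), and Foxp3 is found in 3 of 74 CD8 cells and 39 of 78 CD4 cells.

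Across the 8473 genes that 10% or more of the CD8 or of the CD4 cells held above 0, called measured genes here, 652 (7.7%) were higher in CD8 by 1 or more and 2.79% were lower by 1 or more. The median over all genes was 0.10. This split leaned on how cells were set side by side. Higher genes were 73.4% of those past 1 as counted here, 39.2% when CD8 and CD4 cells were matched on genes detected, and 48.8% when the log of the mean FPKM was used. The total in each direction is therefore not read as a property of the cell types, and the results below rest on named genes and lists. Each count of list members past 1 is to be read beside these shares of all measured genes, 7.7% higher and 2.79% lower.

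The genes furthest apart toward CD8 were those of killing and of natural killer (NK) cell receptors. After Cd8a came Nkg7, a granule membrane protein gene needed for degranulation, with a difference of 7.24. Cd8b1 (6.88), Ctsw (6.67), Ccl5 (6.63), Ly6c2 (6.38), Klrd1 (5.65), Klrc1 (4.25) and Klrk1 (3.87) followed. The 15 genes furthest toward CD8 all had the same sign in the population libraries, where they differed by 0.37 to 8.30, 12 of them by 1 or more. In that comparison 14.2% of the 8473 genes were higher in CD8 by 1 or more.

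Toward CD4 lay Cd4, then Tnfrsf4 (-4.78), Foxp3 (-4.25), Folr4 (-3.82), Tnfrsf18 (-3.75) and Tnfrsf9 (-3.33), genes that regulatory T cells are known to carry. Among them stood genes of other kinds, the cytokine feedback gene Cish (-4.21), the interferon-stimulated gene Igtp (-3.64) and Ifi27l2a (-3.42). All 15 genes furthest toward CD4 were also lower in the CD8 population library, with differences of -9.30 to -0.34 (median -1.80), 13 of them by 1 or more. In that comparison 12.03% of the 8473 genes were lower in CD8 by 1 or more.

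**Figure D2:**
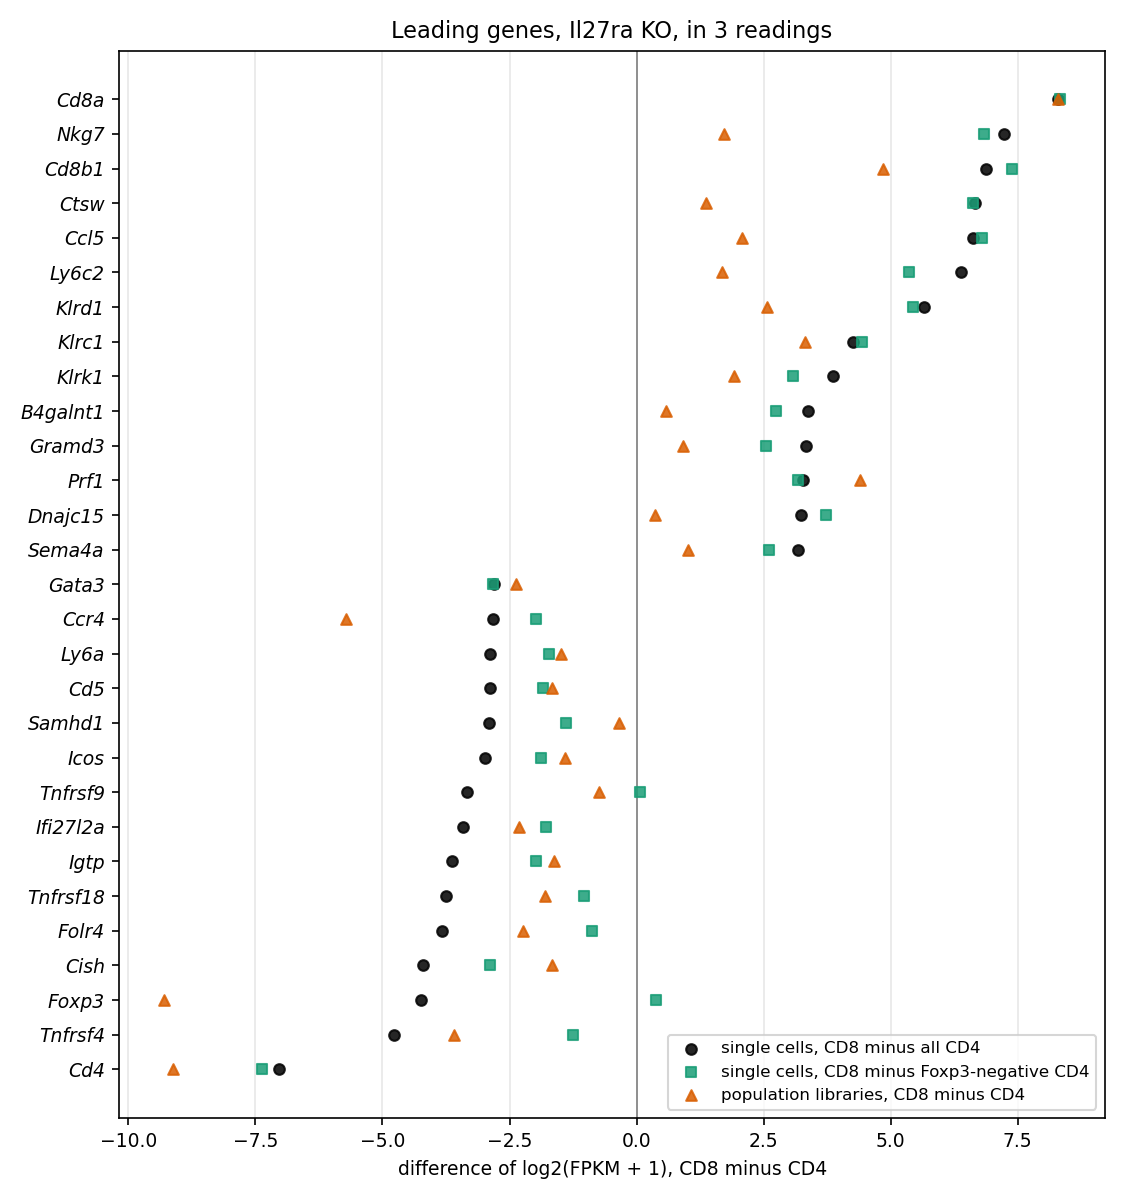
The genes furthest toward CD8 (top, 14 of the 15) and the 15 furthest toward CD4 (bottom), with the CD8 minus CD4 difference of mean log2(FPKM + 1) on the x axis for single cells, for CD8 against CD4 cells with Foxp3 at 0, and for the population libraries. All genes shown keep their sign in the population libraries. Against CD4 cells with Foxp3 at 0 Tnfrsf9 loses its sign (0.07), and Foxp3 does so by the choice of those cells (0.38).

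Promoter windows of 4 of these genes are shown because the first 3 are among the 15 genes furthest toward CD8 and the last marks the regulatory CD4 cells. Each is a stretch of 300 bases around a gene start in RefSeq (GRCm38.p6, plus strand), and windows were matched for 8 of the 15 genes furthest toward CD8 and 11 of the 15 furthest toward CD4. Capitals mark matches, on either strand, to a Runx motif TGTGGT (reverse complement ACCACA) or a T-box motif AGGTGT (reverse complement ACACCT), letters bound by Runx3 and by T-bet or Eomes. The windows lie at chr6:71373177-71373476 for Cd8a, chr7:43436888-43437187 for Nkg7, chr10:61297586-61297885 for Prf1 and chrX:7579426-7579725 for Foxp3, the first of 2 windows listed for that gene.
Cd8a: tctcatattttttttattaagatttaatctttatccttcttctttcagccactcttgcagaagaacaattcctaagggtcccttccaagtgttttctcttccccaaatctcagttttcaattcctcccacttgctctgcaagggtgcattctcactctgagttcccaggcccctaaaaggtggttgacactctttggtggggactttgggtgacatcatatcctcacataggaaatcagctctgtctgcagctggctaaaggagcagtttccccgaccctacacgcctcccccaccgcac
Nkg7: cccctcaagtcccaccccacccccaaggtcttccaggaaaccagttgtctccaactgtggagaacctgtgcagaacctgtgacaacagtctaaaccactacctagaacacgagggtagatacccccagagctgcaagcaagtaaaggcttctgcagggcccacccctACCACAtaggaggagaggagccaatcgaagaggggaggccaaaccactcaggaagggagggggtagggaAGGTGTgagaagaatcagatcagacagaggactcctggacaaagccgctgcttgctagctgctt
Prf1: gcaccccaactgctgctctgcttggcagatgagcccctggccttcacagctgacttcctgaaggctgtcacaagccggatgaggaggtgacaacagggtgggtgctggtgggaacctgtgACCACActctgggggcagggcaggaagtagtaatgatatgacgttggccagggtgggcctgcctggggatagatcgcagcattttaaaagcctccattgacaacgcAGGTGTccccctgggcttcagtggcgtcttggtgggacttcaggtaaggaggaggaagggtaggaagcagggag
Foxp3: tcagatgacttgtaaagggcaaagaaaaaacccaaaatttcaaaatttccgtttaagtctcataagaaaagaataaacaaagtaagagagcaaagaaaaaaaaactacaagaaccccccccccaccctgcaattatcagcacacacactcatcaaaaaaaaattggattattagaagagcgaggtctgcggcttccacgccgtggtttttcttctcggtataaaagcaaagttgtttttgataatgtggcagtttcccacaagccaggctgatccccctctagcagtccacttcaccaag
Nkg7 and Prf1 each hold 1 Runx and 1 T-box match, and Cd8a and this Foxp3 window hold neither.

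Among the matched windows the Runx letters were found in 5 of 8 toward CD8 (Nkg7, Ly6c2, Klrc1, Klrk1 and Prf1) and 2 of 11 toward CD4. Of all 32851 windows used, with chr18 left out, 16.8% hold them. The T-box letters were found in 4 of 8 toward CD8 (Nkg7, Prf1, Dnajc15 and Sema4a) and 4 of 11 toward CD4, against 13.7% of all windows. The letters AGATAA, bound by factors such as Gata3, were in none of either set and in 11.2% of all windows. The motifs were chosen after the gene values were seen, and a match describes letters and not a bound site.

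Cytotoxic granule genes were higher in CD8 cells as a list, but unevenly. Of 20 listed genes 14 were measured in at least 10% of the cells of a type, 7 were higher in CD8 by 1 or more and 0 were lower by 1 or more, with a median difference of 0.95. Some members, among them Prf1 and Gzmk, passed the 10% minimum in CD8 cells only, which draws the median toward CD8. Taken as the log of mean FPKM, the list's median was 0.25.

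Nkg7 (chr7:43437073-43438249, plus strand) ran from 0 to 20434 FPKM with a median of 3557 in CD8 cells, against 0 to 15600 FPKM with a median of 0 in CD4 cells. It was found in 87.8% of CD8 cells (78.2 to 94.3) and 29.5% of CD4 cells (19.7 to 40.9). The ranges overlap because 23 CD4 cells held it, at a median of 2043 FPKM. Ctsw, the gene of the granule protease cathepsin W, was found in 67 CD8 cells (90.5%) and 21 CD4 cells (26.9%), with medians of 1166 FPKM in CD8 and 0 in CD4 cells. Nkg7, Ctsw and Ccl5 were found together in 52 of 74 CD8 cells and 8 of 78 CD4 cells.

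Perforin was almost absent from CD4 cells. Prf1, which encodes the pore-forming protein of the granule (chr10:61297833-61304680, plus strand), was found in 28 CD8 cells (37.8%, 26.8 to 49.9), at up to 6965 FPKM, and in 1 CD4 cell (1.28%, 0.0325 to 6.94), at 187.5 FPKM. The difference was 3.27 in single cells and 4.403 between the population libraries. Gzma and Gzmk, which encode granzymes A and K, differed by 1.87 and 1.62, and between the population libraries the sign of Gzma turned (-0.29). Gzmk was found in 18.9% of CD8 cells and 1.28% of CD4 cells, and Gzma in 21.6% of CD8 and 3.85% of CD4 cells. Cst7, the gene of the cathepsin inhibitor cystatin F, differed by 2.71, and Serpinb9, the gene of a granzyme B inhibitor, by 2.28.

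Granzyme B behaved otherwise. Gzmb was found in 25 CD8 cells (33.8%, 23.2 to 45.7) and 33 CD4 cells (42.3%, 31.2 to 54.02), with a difference of -0.60 and maxima of 20389 FPKM in CD8 and 24962 FPKM in CD4 cells. The population libraries stood at 11.44 for CD8 and 11.63 for CD4. Within CD4 cells Gzmb was found in 69.2% of those with Foxp3 above 0 and 15.4% of those with Foxp3 at 0, and CD8 cells exceeded the cells with Foxp3 at 0 by 2.28. Gzmb together with Prf1 was found in 14 CD8 cells and 0 of 78 CD4 cells, which allows a share of up to 3.85%. Gzmb without Prf1 was found in 11 CD8 and 33 CD4 cells. The remaining members of the list, Srgn, Rab27a, Lamp1, Stxbp2, Ctsc and Unc13d, differed by -0.77 to 0.28.

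NK-type receptors were the second CD8 group. Of 22 listed genes 13 were measured, 8 were higher in CD8 by 1 or more and 1 was lower, with a median of 1.34. A gene counts as measured if it passes 10% in either type. Klre1, Cd160, Crtam and Klra7, among others, passed in CD8 cells only, which draws the count and median toward CD8. Klrd1 encodes CD94, which pairs with the inhibitory receptor NKG2A (Klrc1) or the activating NKG2C (Klrc2). Klrd1 was found in 51 CD8 cells (68.9%, 57.1 to 79.2) and 9 CD4 cells (11.5%, 5.41 to 20.8), and ran to 10240 FPKM in CD8 and 1835 FPKM in CD4 cells. Klrc1 was found in 36 CD8 and 4 CD4 cells, and both partners in 31 CD8 and 3 CD4 cells. Klrc2 was found in 34 CD8 and 4 CD4 cells. Close paralogs such as Klrc1 and Klrc2 share sequence, and the authors' estimates could divide reads between them.

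Klrk1, the gene of the activating receptor NKG2D, was found in 46 CD8 cells (62.2%) and 13 CD4 cells (16.7%). Its adaptor gene Hcst was found in 66.2% of CD8 and 56.4% of CD4 cells, and the pair of them in 32 CD8 and 6 CD4 cells. Klre1 (1.93), Cd160 (1.35) and Crtam (1.34) were also higher in CD8 cells, the last in 12 CD8 cells and 0 of 78 CD4 cells. Klrg1, a receptor of terminal effector cells and of some regulatory T cells, went the other way at -1.62, with 16.2% of CD8 and 30.8% of CD4 cells. Against CD4 cells with Foxp3 at 0 its difference was 0.15.

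Most cells with Klrd1 held T cell genes, as did most cells of both types. Of the 51 CD8 cells with Klrd1, 50 held a Cd3 gene and 50 held a CD8 chain. Of all 74 CD8 cells, 71 held a Cd3 gene and 72 a CD8 chain. Of the 9 CD4 cells with Klrd1, 8 held a Cd3 gene and 7 held a CD8 chain. Of all 78 CD4 cells, 77 held a Cd3 gene and 29 a CD8 chain. Ncr1, which marks NK cells, was found in 1 CD8 and 1 CD4 cell, and Klrb1c in 7 CD8 and 3 CD4 cells. Of 8 NK cell marker genes 3 passed the 10% minimum and 1 was higher in CD8 by 1 or more, with a median difference of 0.88, and Eomes and Klra4 were at 0 in all CD4 cells. The summed log2 level of the 8 markers ranged from 0 to 59.9 over CD8 cells and 0 to 39.7 over CD4 cells, with medians of 0 in both. Between the population libraries the median level of the NK markers was 4.43 for CD8 and 2.66 for CD4, and their part in the population differences was not tested.

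Chemokine genes also leaned to CD8. Ccl5, which encodes an attractant for T cells and monocytes, ran from 0 to 47796 FPKM with a median of 3683 in CD8 cells, against 0 to 8096 FPKM with a median of 0 in CD4 cells. It was found in 77.03% of CD8 and 24.4% of CD4 cells. Ccl4 was found in 32.4% of CD8 and 6.41% of CD4 cells (2.31). Xcl1, the gene of a dendritic cell attractant, was rare in single cells, in 10 CD8 and 2 CD4 cells, yet stood at 10.96 for CD8 and 4.74 for CD4 in the population libraries. Cxcl10 was lower in CD8 by -1.77, in 7 CD8 and 19 CD4 cells. Of 10 listed chemokines 6 were measured, 2 higher and 1 lower by 1 or more, with a median of 0.85. Ccl3, Ccl4 and Xcl1 passed the 10% minimum in CD8 cells only, which draws the median toward CD8.

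The other genes among the 15 furthest toward CD8 belong to no single pathway. Ly6c2, which encodes a Ly6C surface protein of effector and memory CD8 cells, was found in 70.3% of CD8 and 19.2% of CD4 cells. Its close paralog Ly6c1 shares sequence with it. B4galnt1, the gene of a ganglioside-synthesis enzyme, was found in 89.2% of CD8 and 57.7% of CD4 cells, and its difference of 3.37 became 0.57 between the population libraries. Gramd3 (3.34), the mitochondrial co-chaperone gene Dnajc15 (3.24) and the semaphorin gene Sema4a (3.19) followed. Of these Dnajc15 was 0.37 and Gramd3 0.91 between the population libraries.

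Regulatory T cell genes formed the CD4 side. Of 20 listed genes 19 were measured, 15 were lower in CD8 by 1 or more, 0 were higher, and all 19 measured members had a negative difference, with a median of -1.69. Some members, among them Foxp3, Folr4 and Lrrc32, passed the 10% minimum in CD4 cells only, which draws the counts and median toward CD4. The list's median was -1.80 between the population libraries. Several of these genes are listed because regulatory cells are known to carry them, and 39 of the 78 CD4 cells held Foxp3, so the list and the makeup of the CD4 sample are not independent.

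Foxp3 (chrX:7573644-7595245, plus strand), the defining factor of these cells, ran from 0 to 1155 FPKM in CD8 cells, where 3 of 74 held it (4.05%, 0.844 to 11.4), against 0 to 3413 FPKM in CD4 cells, where 39 of 78 held it (interval 38.5 to 61.5%). In the population libraries it was listed at 0 for CD8 and stood at 9.30 for CD4. Foxp3, Ctla4 and Il2ra, the last encoding the high-affinity IL-2 receptor chain CD25, were found together in 2 CD8 and 31 CD4 cells.

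Tnfrsf4 and Tnfrsf18, which encode the costimulatory receptors OX40 and GITR, were found together in 10 CD8 and 44 CD4 cells. Tnfrsf4 was found in 13.5% of CD8 cells (6.68 to 23.5) and 58.97% of CD4 cells (47.3 to 69.99), with medians of 0 FPKM in CD8 and 273.7 FPKM in CD4 cells. Tnfrsf18 was found in 52.7% of CD8 and 78.2% of CD4 cells, with medians of 25.9 FPKM in CD8 and 1329 FPKM in CD4 cells. Folr4, the gene of folate receptor 4, was found in 4 CD8 and 37 CD4 cells. Il10 (-1.48), which encodes an inhibitory cytokine, was found in 1.35% of CD8 and 19.2% of CD4 cells, and Areg (-1.80), the gene of the tissue repair factor amphiregulin, in 5.41% of CD8 and 25.6% of CD4 cells. Lrrc32, which encodes the TGF-beta docking protein GARP, was found in 0 of 74 CD8 cells, which allows a share of up to 4.05%, and in 21.8% of CD4 cells.

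Against the 39 CD4 cells with Foxp3 at 0 the regulatory list had no common direction. Its median there was 0.00, taken over the 19 members measured against all CD4 cells. Itgb8, a member with no cell above 0 on either side of that comparison, had this value. Of the 8507 genes measured in that comparison, 13.3% were higher in CD8 by 1 or more and 2.15% lower. Ctla4 differed by 0.45 there and by -2.07 against all CD4 cells, and Il2ra by 0.02 there and by -2.24 against all. Ikzf2, the gene of the regulatory cell factor Helios, differed by 0.36 there and by -1.57 against all. Tnfrsf9, which encodes the costimulatory receptor 4-1BB, differed by 0.07 there and by -3.33 against all. Tnfrsf4 (-1.26), Tnfrsf18 (-1.04) and Ccr8 (-1.15) kept a difference beyond 1, while Folr4 (-0.87), Areg (-0.55) and Il10 (-0.10) lay within 1. A cell with Foxp3 at 0 may still be a regulatory cell whose transcript was missed, and CD4 cells with Foxp3 above 0 had a median of 2809 genes, against 2500 in those with Foxp3 at 0.

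Other CD4-side genes still lay beyond 1 with the Foxp3 cells set aside, most of them nearer to CD8 cells than before. Cish, the gene of a feedback inhibitor of cytokine signalling, was found in 35.1% of CD8 cells (24.4 to 47.1) and 78.2% of CD4 cells (67.4 to 86.8), with medians of 0 FPKM in CD8 and 353.4 FPKM in CD4 cells. Its difference was -4.21 overall and -2.88 against cells with Foxp3 at 0. Gata3, a transcription factor of helper cells, differed by -2.80 overall and -2.83 against those cells, with 45.9% of CD8 and 70.5% of CD4 cells. Icos, which encodes an inducible costimulator, differed by -2.98 and -1.89, and Cd5, which encodes a negative regulator of T cell receptor signals, by -2.88 and -1.85. Ccr4, the gene of a receptor for skin and tumour chemokines, was found in 5 CD8 and 40 CD4 cells, with population levels of 1.16 for CD8 and 6.88 for CD4. It differed by -2.83 overall and -1.97 against cells with Foxp3 at 0. Cd40lg, the helper ligand itself, differed by -1.82 overall and -3.91 against cells with Foxp3 at 0.

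Costimulatory receptors and ligands as a list were lower in CD8 cells. Of 19 measured genes 11 were lower by 1 or more and 2 were higher, with a median of -1.39 overall and -1.04 against CD4 cells with Foxp3 at 0. The 2 higher were Cd27 (1.49) and Cd226 (1.11). Cd27, a costimulator of the TNF receptor family, was found in 68.9% of CD8 and 47.4% of CD4 cells. It stood 4.56 above the CD4 cells with Foxp3 at 0, but its log of mean FPKM was -0.11 overall.

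**Figure D3:**
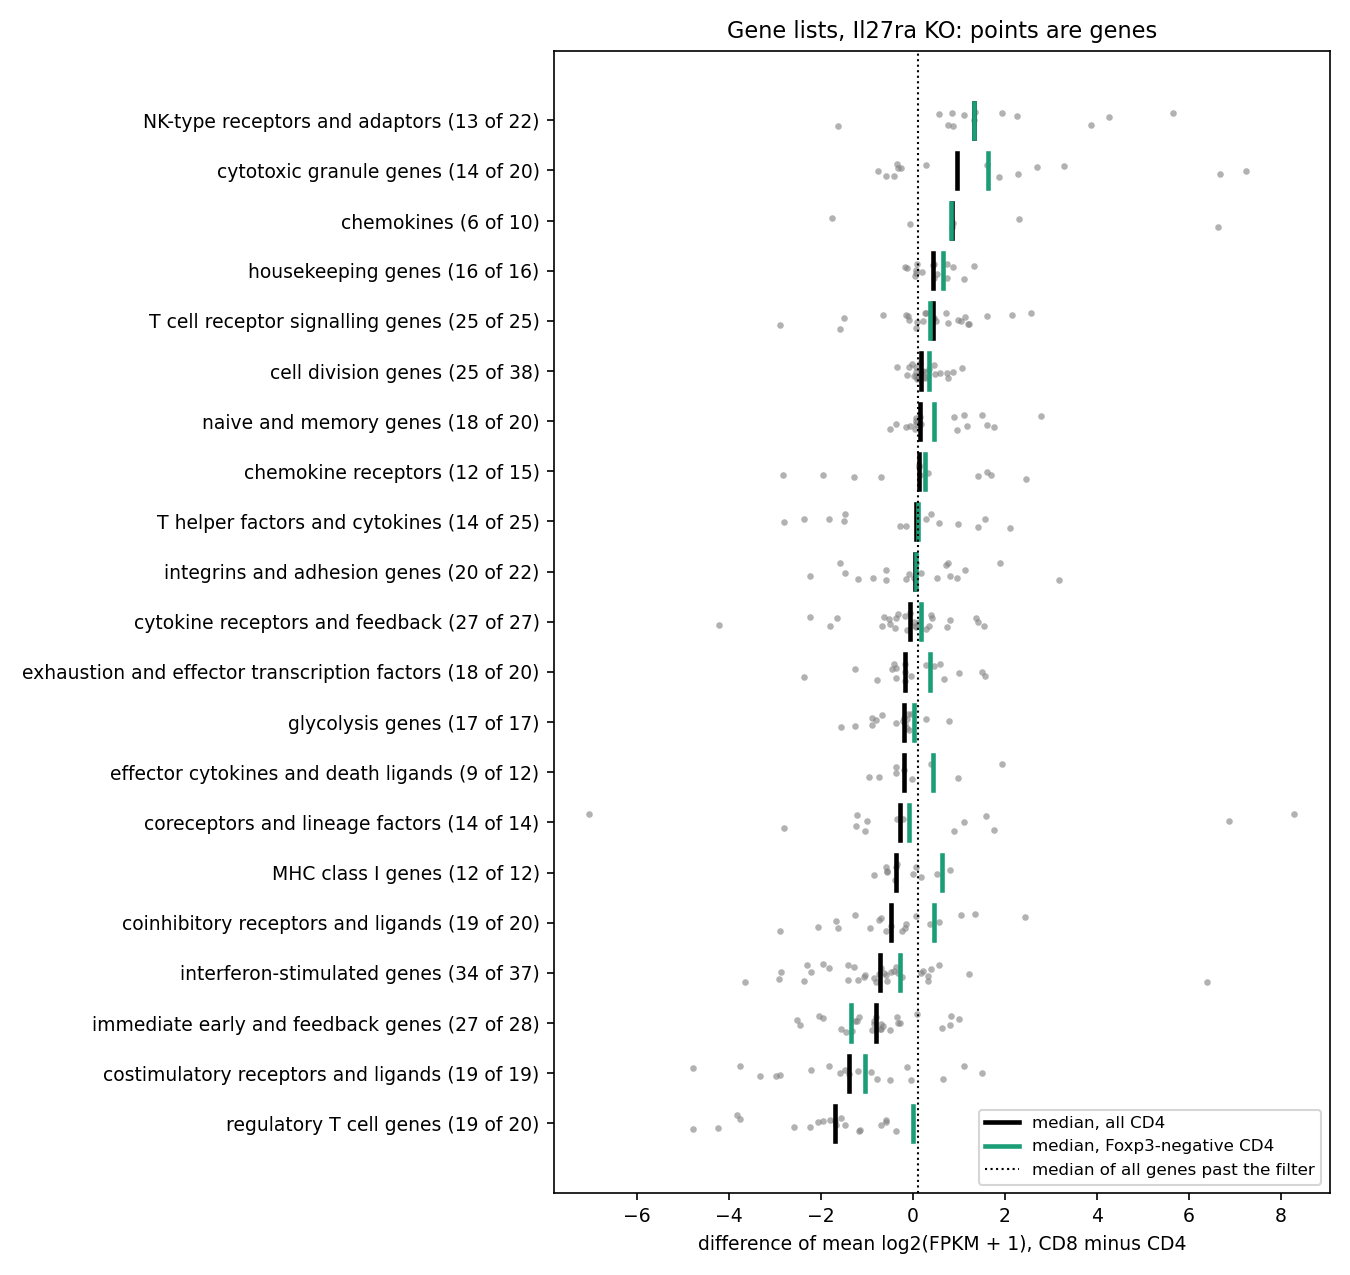
Each grey point is 1 measured gene of a list, with its CD8 minus CD4 difference of mean log2(FPKM + 1) on the x axis. Black bars are list medians against all CD4 cells, and green bars those of the same genes against CD4 cells with Foxp3 at 0. The dotted line is the median of all genes. Regulatory T cell genes (-1.69) and costimulatory genes (-1.39) lie furthest toward CD4, NK-type receptors (1.34) and cytotoxic granule genes (0.95) furthest toward CD8, and the regulatory list's green bar lies at 0.00.

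Lineage factors differed less sharply than the coreceptors. Runx3, which silences Cd4 in CD8 cells, was found in 55 CD8 cells (74.3%) and 39 CD4 cells (1.58), but the population libraries both stood at 6.53. Zbtb7b, which encodes ThPOK, the factor of the CD4 lineage, was found in 12.2% of CD8 and 37.2% of CD4 cells (-1.05). Tbx21, the gene of T-bet, was found in 52.7% of CD8 and 24.4% of CD4 cells (1.57), with a population difference of -0.39. Eomes, a related T-box factor, was found in 14 CD8 cells (18.9%) and 0 of 78 CD4 cells. Of the 14 lineage genes 5 were higher and 6 lower by 1 or more, with a median of -0.28.

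T helper genes were mixed. Of 25 listed 14 were measured, 3 were higher and 5 lower by 1 or more, with a median of 0.07. Over all measured genes 7.7% were higher and 2.79% lower. Maf, which encodes a factor that drives Il10, was found in 5 CD8 cells (6.76%) and 39 CD4 cells, and the population libraries held it at 0 for CD8 and 6.33 for CD4. Stat4, the gene of the transducer of IL-12 signals, was found in 55 CD8 and 39 CD4 cells (2.11). Ifng, the gene of interferon gamma, was found in 17 CD8 cells (22.97%) and 9 CD4 cells (11.5%), with a difference of 0.97 in single cells and 3.90 between the population libraries.

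Genes induced soon after stimulation were lower in CD8 cells. Of 28 listed immediate early and feedback genes 27 were measured, 10 were lower by 1 or more and 0 higher, with a median of -0.81. The median was -1.35 against CD4 cells with Foxp3 at 0 and -0.63 between the population libraries. Egr1, a factor switched on by receptor signals, ran from 0 to 837 FPKM in CD8 cells, in 20 of them, and 0 to 7773 FPKM in CD4 cells, in 36 of them. Its difference was -2.53 overall and -4.46 against cells with Foxp3 at 0. Nfkbid (-2.44) and Nfkbia (-1.95), which encode NF-kappaB regulators, and Zfp36 (-2.05), whose protein marks messages for decay, differed in the same direction. When cells holding the other lineage's coreceptor were left out, the list's median was -0.47.

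Interferon-stimulated genes as a list were lower in CD8 cells when set against all CD4 cells labelled KO. Of 37 listed genes 34 were measured, 14 were lower by 1 or more and 2 were higher, with a median of -0.72. Over all measured genes 2.79% were lower and 7.7% higher. Igtp, the gene of an interferon-inducible GTPase, was found in 33.8% of CD8 cells (23.2 to 45.7) and 71.8% of CD4 cells (60.5 to 81.4), with medians of 0 FPKM in CD8 and 370 FPKM in CD4 cells. Samhd1, the gene of an enzyme that degrades deoxynucleotides, was found in 47.3% of CD8 and 83.3% of CD4 cells, with a difference of -2.90 that became -0.34 between the population libraries. Ly6a, which encodes Sca-1, had medians of 25.4 FPKM in CD8 and 2473 FPKM in CD4 cells. Irf1 (-2.21), a transcription factor of the interferon response, had the same sign. The 2 higher were Ly6c2 and Psmb8 (1.22), a subunit of the immunoproteasome. Against CD4 cells with Foxp3 at 0 the median of these 34 genes was -0.28, so the list no longer lay beyond 0.5, and between the population libraries it was -0.38. In WT cells the median of these genes was -0.26, also within 0.5.

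Coinhibitory receptors were mixed, and their median turned with the CD4 cells used. Of 20 listed 19 were measured, 3 were higher and 5 lower by 1 or more, and 13 of the 19 lay below 0, with a median of -0.47. The median was 0.45 against CD4 cells with Foxp3 at 0, 0.002 between the population libraries and -1.01 with cells matched on genes detected. Pdcd1, which encodes PD-1, was found in 21 CD8 cells (28.4%, 18.5 to 40.1) and 21 CD4 cells (26.9%, 17.5 to 38.2), with a difference of -0.18. Lag3 was found in 28.4% of CD8 and 32.1% of CD4 cells (-0.15), and Havcr2, the gene of TIM-3, in 18.9% of CD8 and 26.9% of CD4 cells (-0.47). For all 3 the intervals of the types overlap widely. Against CD4 cells with Foxp3 at 0, Lag3 was higher in CD8 by 1.27 and Havcr2 differed by 0.58. Between the population libraries Havcr2 differed by 1.46 and Lag3 by 0.62. Tigit was found in 54.1% of CD8 and 67.9% of CD4 cells (-1.68), and against cells with Foxp3 at 0 its difference was 0.52. Of Pdcd1, Lag3, Havcr2 and Tigit, 0 were found in 24 CD8 and 12 CD4 cells, and all 4 in 8 CD8 and 4 CD4 cells. Cd96, a receptor that shares the ligand CD155 with TIGIT, was the member furthest toward CD8, with 51.4% of CD8 and 24.4% of CD4 cells (2.43).

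**Figure D4:**
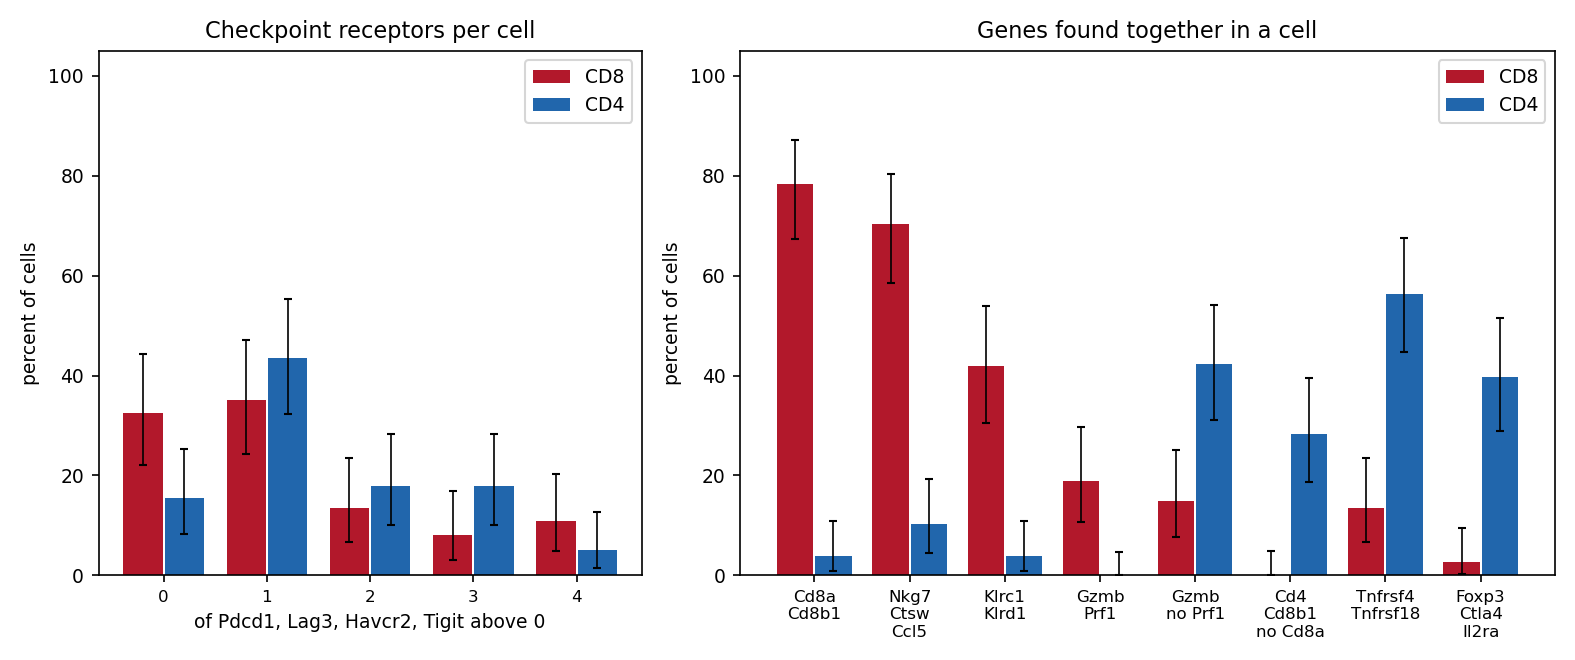
Percent of kept cells labelled Il27ra KO, CD8 bars left of CD4 bars, with exact 95% intervals that cover counting error only; the left panel counts how many of Pdcd1, Lag3, Havcr2 and Tigit were above 0 in a cell, the right panel gene combinations. None of the 4 receptors was found in 24 CD8 and 12 CD4 cells, and Gzmb with Prf1 was found in 14 CD8 and 0 CD4 cells while Gzmb without Prf1 was found in 11 CD8 and 33 CD4 cells.

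Factors of exhaustion and effector fate differed little as a list, with 18 of 20 measured, 3 higher, 2 lower and a median of -0.17. Over all measured genes 7.7% were higher and 2.79% lower. Tox, a factor of exhausted cells, was -0.04, and Nr4a2 was 1.49. Genes of naive and memory cells had 18 of 20 measured, 6 higher and 0 lower by 1 or more, with a median of 0.15. Bcl2, which encodes a survival factor, was found in 60.8% of CD8 and 25.6% of CD4 cells (2.79). Tcf7, the gene of the memory factor TCF-1, was found in 55.4% of CD8 and 29.5% of CD4 cells (1.76), but against CD4 cells with Foxp3 at 0 the difference was -0.01. Tcf7 without any of the 4 checkpoint receptors was found in 16 CD8 and 5 CD4 cells. Ccr7, the lymph node homing receptor gene, was found in 32.4% of CD8 and 15.4% of CD4 cells (1.62).

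Receptor signalling genes leaned slightly to CD8, with 25 of 25 measured, 7 higher, 3 lower and a median of 0.44. Over all measured genes 7.7% were higher and 2.79% lower. Ptpn6, the gene of the phosphatase SHP-1, was found in 64.9% of CD8 and 41.03% of CD4 cells (2.56). Ptpn22, another phosphatase gene, differed by 2.15 and Vav1, an exchange factor gene, by 1.61. Between the population libraries Ptpn6 (0.92), Ptpn22 (0.79) and Vav1 (0.53) lay within 1. Cd3e (0.28), Cd3g (0.49), Cd3d (0.71) and Zap70 (0.08), shared parts of the receptor machinery, were within 1. Of 16 housekeeping genes 14 were within 1, with a median of 0.44 as well, so the median of the signalling list is no further from 0 than theirs.

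Chemokine receptors and integrins divided by gene. Of 15 listed chemokine receptors 12 were measured, 4 higher and 3 lower by 1 or more, with a median of 0.14. Cxcr6, a tissue residence receptor gene, was found in 60.8% of CD8 and 39.7% of CD4 cells (2.45), but its difference was 0.44 against CD4 cells with Foxp3 at 0 and -0.20 between the population libraries. Cx3cr1 was found in 39.2% of CD8 and 15.4% of CD4 cells (1.70). Of 22 integrin and adhesion genes 20 were measured, 3 higher and 4 lower, with a median of 0.04. Beside the counts of both lists stand 7.7% higher and 2.79% lower over all measured genes. Itgb2, the beta chain gene of LFA-1, was found in 94.6% of CD8 and 74.4% of CD4 cells (1.88, against 0.12 between the population libraries), and Itgb7, the beta chain gene of gut-homing integrins, in 70.3% of CD8 and 88.5% of CD4 cells (-2.24). Amica1, which encodes the adhesion molecule JAML, was found in 48.6% of CD8 and 8.97% of CD4 cells (3.17). Itgb3 was found in 19 CD8 and 39 CD4 cells (-1.59).

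The remaining lists lay within 0.5 of 0 against all CD4 cells. Over all measured genes 7.7% were higher and 2.79% lower. Cytokine receptors and their feedback genes had 27 of 27 measured, 3 higher and 4 lower, with a median of -0.07. Their largest member toward CD4 after Cish and Il2ra was Il12rb1 (-1.80, but -0.60 against CD4 cells with Foxp3 at 0), and Il18rap (1.55) lay furthest toward CD8. Effector cytokines and death ligands had 9 of 12 measured and a median of -0.19, with Fasl, the death ligand gene, in 48.6% of CD8 and 26.9% of CD4 cells (1.94). The difference of Fasl was 0.43 against CD4 cells with Foxp3 at 0 and -0.20 between the population libraries. Glycolysis genes had a median of -0.19 with 0 higher and 2 lower of 17, Tpi1 (-1.56) and Slc16a3 (-1.26). MHC class I genes, whose members share much sequence, had a median of -0.36 with all 12 within 1. Their median turned to 0.63 against CD4 cells with Foxp3 at 0 and was -0.56 between the population libraries. H2-D1, found in every cell, had medians of 4796 FPKM in CD8 and 8033 FPKM in CD4 cells.

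Cell division genes differed little between the single cells. Of 38 listed 25 were measured, 24 were within 1, and the median was 0.18, but between the population libraries it was 0.61. Mki67, a mark of cycling cells, was found in 12 CD8 cells (16.2%, 8.67 to 26.6) and 8 CD4 cells (10.3%, 4.53 to 19.2). At least 8 of the listed genes were above 0 in 51 CD8 and 44 CD4 cells. Without those cells, 23 CD8 cells with a median of 2543 genes and 34 CD4 cells with a median of 2094 genes remained, and 18.6% of measured genes were higher and 4.85% lower by 1 or more.

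Markers of other cell types were found in both groups. At least 3 of the macrophage, class II and dendritic cell markers lay above 0 in 19 of 74 CD8 and 21 of 78 CD4 cells. The summed log2 level of 13 macrophage and monocyte markers ranged from 0 to 59.5 in CD8 and 0 to 57.96 in CD4 cells, with medians of 1.41 in CD8 and 7.15 in CD4 cells. Of the 13 genes, 3 were measured, and the only one past 1 was the chemokine receptor gene Ccr2 (-1.28). Ccr2 was found in 47.3% of CD8 and 62.8% of CD4 cells, and it also counts toward the 3 markers above. Its part in the gap between these medians was not tested. That of 5 class II genes ranged from 0 to 68.8 in CD8 and 0 to 71.4 in CD4 cells, with a median of 0 in both. Emr1, which encodes the macrophage antigen F4/80, was at 0 in every cell of both types. Without the cells holding 3 or more such markers, 8.54% of measured genes were higher and 3.51% lower, and the regulatory and cytotoxic lists stayed on their side of 0.5. In the population libraries the class II genes had a median level of 11.80 for CD8 and 10.55 for CD4, and dendritic cell markers 6.10 for CD8 and 4.51 for CD4. Their part in the population differences was not tested.

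The same comparison in WT mice is given beside these values, although WT CD4 titles hold p3 and the other groups p2. In WT, 14.1% of 8961 genes were higher in CD8 by 1 or more and 2.08% lower. Of the 652 genes higher in CD8 cells labelled KO, 39.1% were also higher by 1 or more in WT, and these made up 20.2% of the 1265 genes higher in WT. The genes lower in both numbered 77, which is 32.6% of those lower in KO and 41.4% of those lower in WT. Past 1 in the opposite direction in WT were 9 of the genes higher and 11 of the genes lower in cells labelled KO. Across 8070 genes measured in both, the differences had a Pearson r of 0.43 and a Spearman rho of 0.28, as a description over genes that are not independent.

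The leading killing and regulatory genes had the same sign in both genotypes. Prf1 differed by 3.27 in cells labelled KO and 4.11 in WT, Nkg7 by 7.24 and 6.14, Foxp3 by -4.25 and -3.66, and Tnfrsf4 by -4.78 and -3.20. Medians of the cytotoxic list were 0.95 in KO and 1.501 in WT, and those of the regulatory list -1.69 in KO and -1.49 in WT. Other members turned, among them Il10 (-1.48 in KO and 0.23 in WT), Ctsc (-0.26 in KO and 1.18 in WT) and Lamp1 (-0.34 in KO and 0.78 in WT). Checkpoint receptors and granzyme B turned as well. Pdcd1 was -0.18 in KO and 3.04 in WT, Lag3 -0.15 in KO and 4.04 in WT, Havcr2 -0.47 in KO and 2.73 in WT, and Gzmb -0.60 in KO and 3.17 in WT. WT means of Pdcd1 were 6.34 in CD8 and 3.30 in CD4, against 2.42 in CD8 and 2.60 in CD4 cells labelled KO. The median of the cell division list was 0.18 in KO and 1.55 in WT. With 1 sample per group none of these gaps between genotypes was tested.

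**Figure D5:**
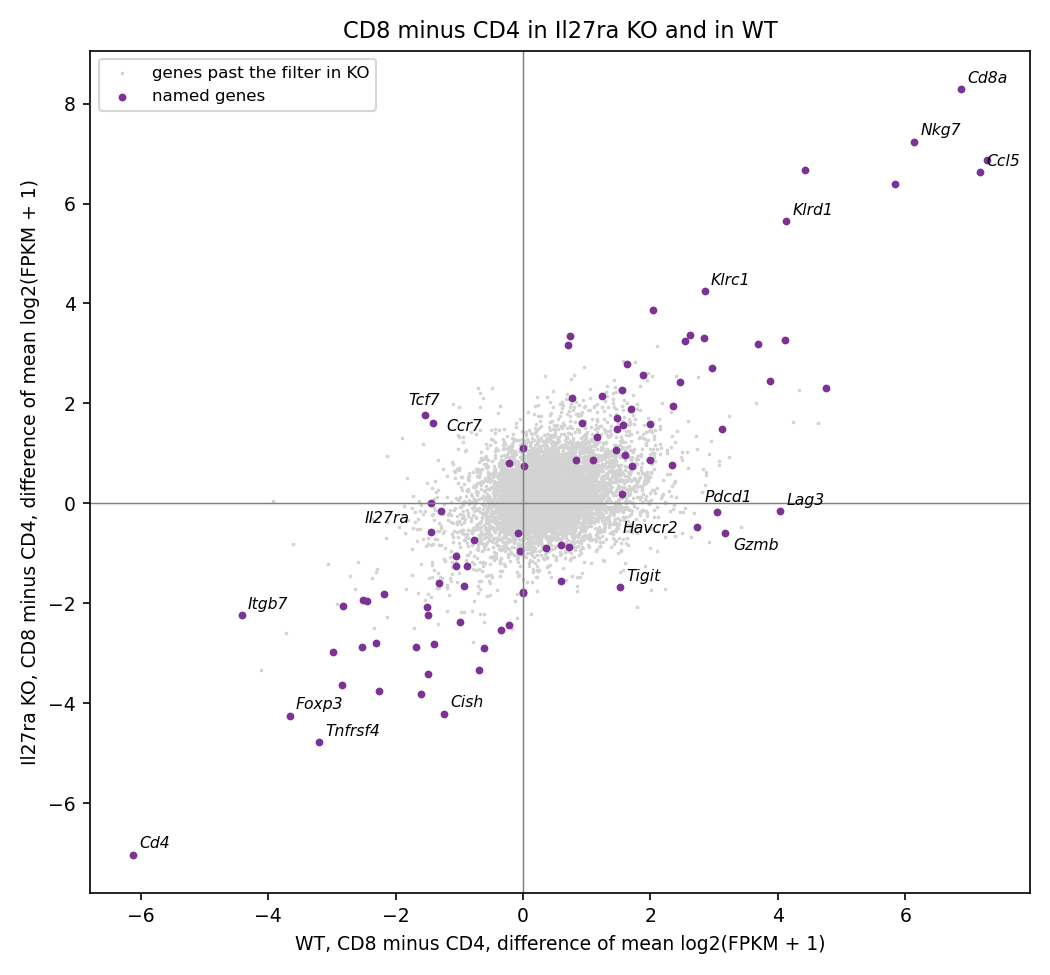
CD8 minus CD4 difference of mean log2(FPKM + 1) in cells labelled Il27ra KO on the y axis and in WT cells on the x axis, with named genes in purple and the other measured genes in grey. Cd8a, Nkg7 and Klrd1 lie at the upper right and Cd4, Foxp3 and Tnfrsf4 at the lower left, while Pdcd1, Lag3, Havcr2 and Gzmb lie between -0.60 and -0.15 in KO and between 2.73 and 4.04 in WT.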

How the data were processed

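The authors deposited 1 table of FPKM values with TMM scaling between libraries, per the labels. Bowtie, RSEM and the mm10 genome are named in the submitters' processing notes, without versions, and no source used here gives the gene annotation. RSEM estimates fragments per gene, so low values can come from shared sequence, and no molecular identifiers are described. All 378 columns were matched to samples by title.

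Cells with at least 1000 genes above 0 were kept. Differences are of mean log2(FPKM + 1) over measured genes, those that 10% or more of the cells of a type held above 0; a difference of 1, or a list median of 0.5, was the size rule. No test, clustering or doublet caller was run, because each group is 1 sample and cells were sorted into wells. Named genes were the 15 furthest in each direction with 20% or more of the cells of a type above 0, T cell receptor, immunoglobulin, mitochondrial and unnamed genes left out, plus fixed genes and up to 4 per list. All 21 lists and the named members were chosen with earlier results of these data known. A few genes that the rule names are not reported here. Genes named beyond that rule were chosen after their values were seen. Reads per cell were estimated from FPKM steps with GENCODE M21 transcript lengths. A median of 77.7% of low values in CD8 and 75.9% in CD4 cells lay within 0.1 of a whole number. The fit itself seeks such values, so this share is no separate check of it. Tested on simulated data of 40 cells and 21777 genes, 97.5% of estimates came within 25%. The simulated reads were whole numbers, while RSEM estimates can be fractions. Alternatives covered pseudocounts, filters, cell subsets, matching, thinning to 200000 reads and the population libraries. Python 3.11.15, pandas 2.3.3 and scipy 1.17.1 were used.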

Additional observations from a re-analysis of the deposited data

Results flagged for a closer look

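For 3 named genes the CD8 minus CD4 difference went past 1 in opposite directions in the 2 genotypes. Ccr7, the lymph node homing receptor gene, differed by 1.62 in cells labelled Il27ra KO and -1.41 in WT. Tcf7, the gene of TCF-1, differed by 1.76 in cells labelled Il27ra KO and -1.54 in WT. Tigit, a coinhibitory receptor gene, differed by -1.68 in cells labelled Il27ra KO and 1.52 in WT. Ccr7 means were 3.13 in CD8 and 1.52 in CD4 cells labelled KO, and 0.61 in CD8 and 2.01 in CD4 cells of WT. Tcf7 means were 4.26 in CD8 and 2.49 in CD4 cells labelled KO, and 1.71 in CD8 and 3.26 in CD4 cells of WT. With 1 sample per group the difference between genotypes was not tested, and WT CD4 titles hold p3 where the others hold p2.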

How the results depend on the processing

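No paired analysis was possible because the numbers in the titles are not shared between CD8 and CD4 libraries and no result comes from a test. Of 21 list medians, between 17 and 21 kept their call at 0.5 under each alternative. Of 94 named genes (91 with thinning), between 68 and 93 kept their call at 1 under the alternatives other than dropping the gene filter. That filter does not enter a gene's difference, so without it all 94 calls were kept by definition. A value that turned sign but stayed within the size rule is counted as kept. As reported, 7.7% of measured genes were higher and 2.79% lower by 1 or more. The cause of the shifts below was not tested, except that fewer cells or genes entered where a subset is named.

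Against CD4 cells with Foxp3 at 0, 13.3% of measured genes were higher in CD8, the MHC class I median was 0.63, that of housekeeping genes 0.66 and that of interferon-stimulated genes measured there -0.26, and of the 94 genes, among those past 1 as reported, the sign turned for Ctla4 (0.45), Foxp3 (0.38), Il2ra (0.024), Tcf7 (-0.012), Tigit (0.52) and Tnfrsf9 (0.065). The turn of Foxp3 was fixed by choosing CD4 cells with Foxp3 at 0. Of genes within 1 as reported, Gzmb (2.28) and Lag3 (1.27) turned and passed 1 in that comparison, and Havcr2 (0.58) turned. Between the population libraries 14.2% of genes were higher and 12.03% lower, medians were -0.56 for MHC class I, 0.61 for cell division, -0.60 for chemokine receptors and -0.38 for interferon-stimulated genes, and among those past 1 as reported the sign turned for Cxcr6 (-0.20), Fasl (-0.20) and Tbx21 (-0.39). Of genes within 1 as reported, Havcr2 (1.46) and H2-Q6 (-1.04) turned and passed 1 there, and Lag3 (0.62) turned. With the log of mean FPKM 12.01% were higher and 12.6% lower, medians were -0.56 for coinhibitory, 0.25 for cytotoxic and -0.77 for glycolysis genes, and Cd27 was -0.11. Matched on genes detected (63 CD8 and 63 CD4 cells), 4.33% were higher and 6.71% lower, and medians were -0.51 for MHC class I, -1.01 for coinhibitory, -0.70 for lineage and -0.72 for glycolysis genes.

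A minimum of 2000 genes gave 4.58% lower genes and medians of -0.58 for coinhibitory and -0.55 for lineage genes. Every library gave 3.66% higher genes and medians of -0.65 for MHC class I, -0.54 for coinhibitory and -0.51 for glycolysis genes. Without the 10% filter the medians of chemokines (0.41) and cytotoxic genes (0.30) were nearer 0. A pseudocount of 0.1 gave 15.8% higher and 5.88% lower genes and medians of 0.51 for receptor signalling and -0.70 for coinhibitory genes, and one of 10 gave 1.90% higher and 1.003% lower. Thinning to 200000 reads gave a coinhibitory median of -0.68.

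Without cells lacking B2m or all Cd3 genes, medians were 0.61 for receptor signalling and -0.56 for coinhibitory genes. Without cells with 3 or more myeloid markers they were -0.72 for coinhibitory, 0.51 for integrin and 0.80 for naive and memory genes. Without cells with 8 or more cell division genes 18.6% of genes were higher and 4.85% lower, and medians were 0.76 for receptor signalling, 0.78 for chemokine receptors, 0.82 for housekeeping and -0.49 for interferon-stimulated genes. Without cells holding the other coreceptor they were -0.54 for lineage and -0.47 for immediate early genes.

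Depth limits what a 0 shows for rare genes, since 3 CD8 and 7 CD4 cells had under 200000 estimated reads.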

Other observations

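Further genes of the lists, not described above, are given as values with no explanation. Among surface receptors on the CD4 side, Il1rl1, which encodes the IL-33 receptor ST2, was found in 13.5% of CD8 and 39.7% of CD4 cells (-1.68), and Slamf1 in 20.3% of CD8 and 46.2% of CD4 cells (-2.22). Slamf1 differed by -2.38 from CD4 cells with Foxp3 at 0, and Il1rl1 by -0.94. Tnfrsf25, the gene of death receptor 3, was found in 13.5% of CD8 and 30.8% of CD4 cells (-1.47). Itgav, an integrin alpha chain gene, differed by -1.47 overall and by -0.43 from CD4 cells with Foxp3 at 0. Rora, a nuclear receptor gene of helper subsets, was found in 27.03% of CD8 and 42.3% of CD4 cells (-1.50).

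On the CD8 side, 2 cytokine receptor chains differed in the same direction as Stat4. Il12rb2, which encodes a chain of the IL-12 receptor, was found in 37.8% of CD8 and 15.4% of CD4 cells (1.41, against -0.44 in WT), and Il18rap, a chain of the IL-18 receptor, in 52.7% of CD8 and 34.6% of CD4 cells (1.55). Il12rb1, the chain shared by the IL-12 and IL-23 receptors, lay on the CD4 side, in 12.2% of CD8 and 34.6% of CD4 cells (-1.80). Its difference was -0.60 against CD4 cells with Foxp3 at 0 and -0.004 in WT. Cxcr3, the receptor gene for interferon-induced chemokines, was found in 52.7% of CD8 and 33.3% of CD4 cells (1.42), but its sign turned between the population libraries (-0.52) and in WT (-0.82).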
